A study of Mus musculus with 5 samples.

Results

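The heat shock chaperones described here are 9 mouse genes, Hsp90aa1, Hsp90ab1, Hspa8, Hsph1, Dnajb1, Hspd1, Hspe1, Hspa1a and Hspa1b, chosen by name and matched through their Ensembl identifiers. All 9 had an entry in each of the 5 deposited count tables, among 27998 genes. The libraries came from bone marrow of Nes-GFP mice, a strain that carries a GFP reporter of nestin. Of the 5 libraries, 2 were of aged mice older than 20 months and 3 of young mice of 10 to 12 weeks. By their replicate numbers they are called aged 2, aged 3, young 1, young 2 and young 3. In every group the cells were sorted as CD45-CD31+ and labelled endothelial, from preparations of the endosteum, the lining of the inner bone surface. They were frozen in medium with serum and DMSO and thawed just before loading on a 10x Genomics droplet system. There each captured transcript is counted from its 3' end by a molecular tag (UMI, unique molecular identifier) and assigned to a cell by a barcode.

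Heat shock chaperones bind unfolded or partly folded proteins and help them fold, assemble or return from aggregates. Cytosolic HSP70 proteins take new and unfolded chains with the help of J proteins, HSP90 finishes the folding of kinases, receptors and other clients, and the chaperonin of HSP60 and HSP10 folds proteins inside mitochondria. Several of these genes are expressed in all growing cells and also respond to heat or other protein stress through heat shock factor 1 (HSF1), which binds repeats of the short element nGAAn in the promoter, while others are nearly silent until stress. In the marrow, B-lineage precursors alternate between dividing and resting stages: pro-B cells rearrange the immunoglobulin heavy chain, large pre-B cells divide with a surrogate light chain, and small pre-B cells stop dividing and rearrange the light chain.

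Of 3384 deposited barcodes, 2116 had at least 500 genes, at least 1000 UMIs and at most 10% mitochondrial UMIs. The libraries held between 935656 and 5900751 UMIs, and their kept cells had medians between 1889.5 and 4212.5 UMIs. The label was not borne out by the markers: 20 of the 2116 cells passed an endothelial gate, 1914 passed a gate for the B lineage, 159 one for myeloid cells, and 23 passed none. Young 1 stood apart, with 82.6% of its B-lineage cells dividing, against 12.3% to 12.9% in the other libraries, and with 151 of the 159 myeloid cells. Libraries shared 26 barcodes, 5 of them among kept cells. A cell was called dividing with at least 3 of 36 S-phase and G2/M genes detected after thinning to 1000 UMIs (739 B-lineage cells), and resting with at most 1 (1043 cells). Resting cells were then split into 179 MHC class II positive cells, 330 surrogate light chain positive cells (pro-B-like) and 534 with neither (small pre-B-like). No chaperone gene entered a gate. Levels are given as CPM, the share of a gene in all UMIs of a class of cells in a library, scaled to 1e6 UMIs. Cells are not replicates, so tests compare sums per library, and p-values measure the spread between libraries.

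The promoters of the inducible pair and of the mitochondrial pair are shown because in each pair the genes lie side by side or share regulatory sequence. Hspa1a (GENCODE on GRCm38, chromosome 17, 34969190 to 34972156, minus strand, as for all gene positions here) and Hspa1b (chromosome 17, 34956436 to 34959238, minus strand) encode inducible cytosolic HSP70 and start 12918 bases apart. Their RefSeq promoters (GRCm38.p6, the 250 bases before each start) follow 5′ to 3′, with the letters GAANNTTC, a pair of inverted heat shock element units, in capitals.
Hspa1a, chr17:34972157-34972406, minus strand: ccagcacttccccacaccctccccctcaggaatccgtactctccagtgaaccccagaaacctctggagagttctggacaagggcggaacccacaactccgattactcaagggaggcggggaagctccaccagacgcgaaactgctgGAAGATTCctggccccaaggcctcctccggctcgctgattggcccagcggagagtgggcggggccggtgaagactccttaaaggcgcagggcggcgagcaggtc
Hspa1b, chr17:34959239-34959488, minus strand: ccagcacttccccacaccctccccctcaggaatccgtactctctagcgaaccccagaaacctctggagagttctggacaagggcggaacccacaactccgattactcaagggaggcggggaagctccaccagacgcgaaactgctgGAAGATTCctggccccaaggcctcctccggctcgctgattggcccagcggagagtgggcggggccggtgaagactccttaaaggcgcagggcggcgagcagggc
The 2 stretches matched at 247 of 250 bases (98.8%), and in both the motif began 104 bases before the start. Hspd1 (chromosome 1, 55077835 to 55088243, minus strand) and Hspe1 (chromosome 1, 55088132 to 55091307, plus strand) are transcribed away from each other, and their annotated ranges overlap at the starts. Another Hspd1 start, at 55088243, lies beyond the Hspe1 start at 55088148, and the 250 bases before it held neither GAANNTTC nor TTCNNGAA. Between the Hspe1 start and the Hspd1 start at 55087932 these patterns matched at 3 overlapping places. The run GAA, TTC, GAA is in capitals.
Hspd1 and Hspe1, chr1:55088056-55088085, plus strand: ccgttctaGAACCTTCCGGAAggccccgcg
The run lay 71 bases before the Hspe1 start and 131 bases before the nearer Hspd1 start. Over both strands of 32851 promoters of 250 bases, GAANNTTC occurred in 6.69%, TTCNNGAA in 7.17%, and the 2 patterns joined through a shared TTC, as in the last stretch shown, in 0.466%. Promoter entries were found for 6 of the 9 members. Those of Dnajb1 (chromosome 8, 83608193 to 83612653, plus strand) held neither 8-letter pattern, and each of those of Hsph1 (chromosome 5, 149614287 to 149636376, minus strand) held TTCNNGAA 1 time. Hsp90aa1, Hsp90ab1 and Hspa8 are named only. A match is a description of letters and not a measured binding site.

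Dividing B-lineage cells held a larger share of chaperone RNA than resting cells. In a fit of both classes over the 5 libraries, 6 of the 9 members passed the filter on low counts and 6 of these 6 were higher in dividing cells at an adjusted p under 0.05, by log2 differences of 0.53 to 1.24. Background was high: 24.5% of the 4930 genes tested were higher in dividing cells, and 47.5% changed in either direction. The median log2 difference was 0.85 over the 6 members and -0.05 over all genes tested. Hsph1, Hspa1a and Hspa1b were too low for the filter. The classes differed in other measures too: dividing cells had a median of 4163 UMIs and resting cells 2241. Summed myeloid markers lay at 15.7 to 316 CPM in dividing cells and 47.2 to 379.8 CPM in resting cells, with between 0 and 17 of the 20 genes at 0 in a library. Summed endothelial markers lay at 74.2 to 155 CPM in dividing and 207 to 267 CPM in resting cells, with 4 to 10 of 14 at 0. Whether these differences had a part in the results was not tested. Leaving out 6 B-lineage cells with at least 10 UMIs of erythroid or bone-forming markers, an alternative added after the data were seen, changed no member's call in any comparison.

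Among the HSP90 genes, Hsp90aa1 (chromosome 12, 110690605 to 110702728, minus strand), the stress-responsive cytosolic HSP90 alpha, had the largest log2 difference of the 6 members. Its level was 695 and 727 CPM in dividing cells of aged 2 and aged 3 and 1104, 1189.9 and 961 CPM in those of young 1, 2 and 3, against 303, 339, 549, 421 and 444 CPM in the resting cells of the same libraries. Every dividing value lay above every resting value, a pattern met by 12.6% of all genes tested, and within a library the level was 2.01 to 2.83 times as high. In edgeR's quasi-likelihood test the log2 difference was 1.24 ± 0.10 (SE), with an adjusted p of 7.62e-10. Hsp90ab1 (chromosome 17, 45567775 to 45573271, minus strand) encodes HSP90 beta, the constitutive form. It had 1377, 1409, 1569, 1732 and 1317 CPM in dividing cells of aged 2, aged 3, young 1, young 2 and young 3, against 904, 983, 1124, 1097 and 1234 CPM in resting cells. Its groups did not overlap either, but in young 3 the dividing level was only 1.07 times the resting level, and the log2 difference was 0.53 ± 0.09 (edgeR adjusted p = 2.40e-05).

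Hspa8 (chromosome 9, 40800984 to 40810087, plus strand), the constitutive HSP70 of the cytosol, had 1724, 1732, 1135, 2431 and 1776 CPM in dividing cells of aged 2, aged 3, young 1, young 2 and young 3, against 945, 979, 786, 974 and 1179 CPM in resting cells. The dividing level was higher in each of the 5 libraries, by 1.44 to 2.50 times, but the groups overlapped: dividing cells of young 1 lay below resting cells of young 3. The log2 difference was 0.89 ± 0.09 (edgeR adjusted p = 7.97e-08). Dnajb1, the J protein that stimulates HSP70 and is a known HSF1 target, had 236, 155, 145, 236 and 202 CPM in dividing cells, against 80.3, 134, 86.5, 86.5 and 121 CPM in resting cells, in the same order of libraries. All dividing values were above all resting values, although aged 3 differed by only 1.15 times and aged 2 by 2.94 times. Its log2 difference was 1.00 ± 0.18 (edgeR adjusted p = 6.97e-05). Hsph1, the HSP110 nucleotide exchange factor of HSP70, was sparse, with 5, 4, 65, 10 and 2 UMIs in dividing cells and 9, 2, 1, 4 and 3 UMIs in resting cells. That is 21.4, 18.2, 20.4, 39.3 and 13.9 CPM against 13.9, 3.28, 3.76, 7.87 and 5.84 CPM, so the lowest dividing and the highest resting value were about equal. Without the filter on low counts edgeR gave it a log2 difference of 1.73 ± 0.47 (adjusted p = 0.00207).

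In the mitochondrial pair young 1 differed from the other libraries. Hspd1, the HSP60 chaperonin, had 202, 177, 223, 232 and 181 CPM in dividing cells of aged 2, aged 3, young 1, young 2 and young 3, against 78.8, 86.8, 222, 98.3 and 130.4 CPM in resting cells. In young 1 the classes were equal (1.00 times), and in the other 4 libraries the dividing level was 1.39 to 2.56 times as high. In resting cells of young 1, 1 cell held 8 of the 59 Hspd1 UMIs (13.6%), and a cell with bone-forming markers held 6. The log2 difference was 0.81 ± 0.18 (edgeR adjusted p = 0.000705), and it was 1.10 ± 0.17 with young 1 left out (edgeR adjusted p = 9.64e-06). Hspe1, the HSP10 lid of that chaperonin, had 270.2, 291, 621, 326 and 237 CPM in dividing cells, against 179, 188, 474, 218 and 195 CPM in resting cells. Both of its values in young 1 stood above those of the other 4 libraries in the same class, and within a library the dividing level was 1.22 to 1.54 times as high. Its log2 difference was 0.55 ± 0.12 (edgeR adjusted p = 0.000521), a call that was lost when the library term was left out of the fit (0.63, edgeR adjusted p = 0.128). With young 1 left out, all 6 members stayed called higher, at log2 differences between 0.54 and 1.30.

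**Figure D1:**
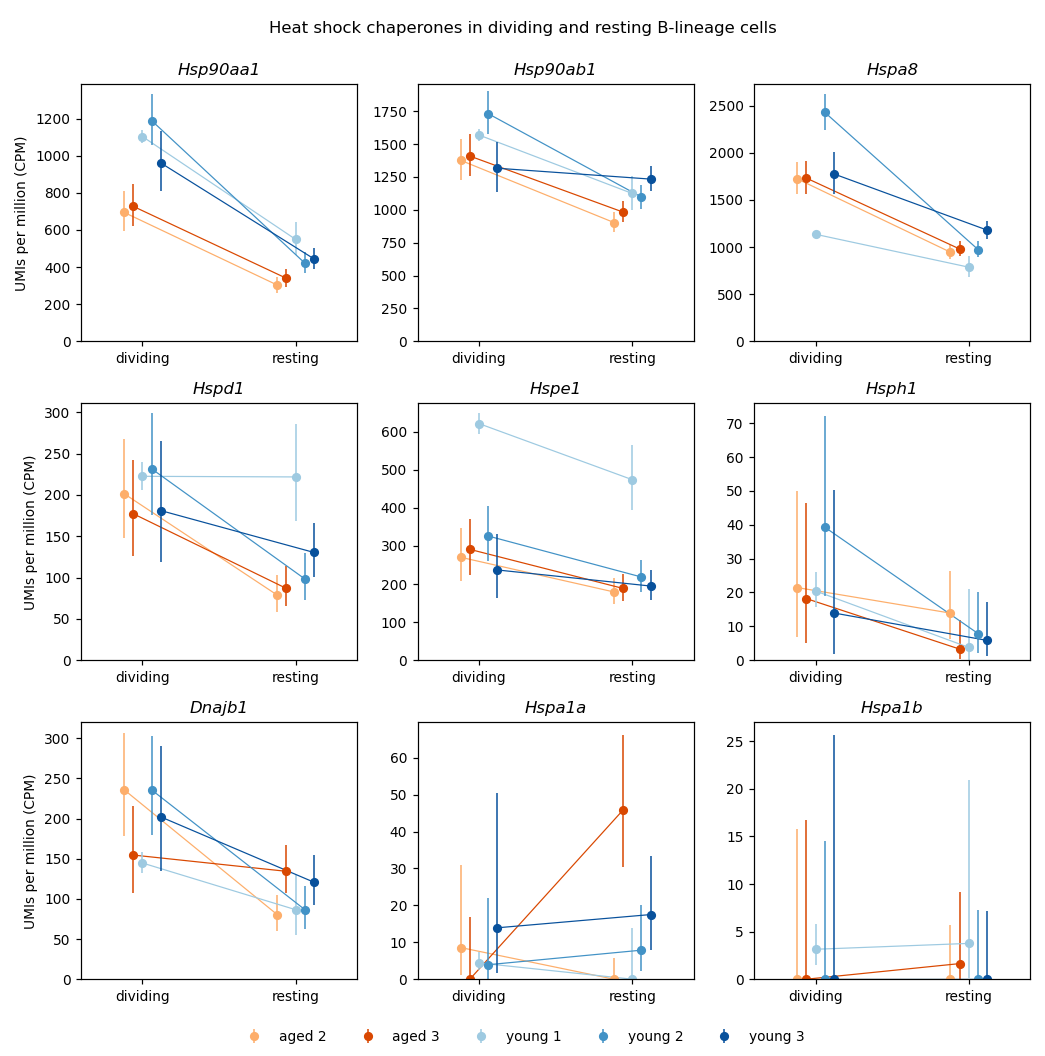
Level (CPM, y axis from 0) of the chaperones in dividing (left) and resting (right) B-lineage cells; each point is the sum of 1 library with its 95% Poisson interval, and lines join the classes of a library. Hsp90aa1 lies at 695 to 1189.9 CPM in dividing and 303 to 549 CPM in resting cells, and the young 1 points of Hspe1 stand above the rest.

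Because dividing and resting cells differ in stage, the contrast was repeated within stage gates. The gates go by marker UMIs and hold stage fixed only in part. The surrogate light chain gate can hold both pro-B and large pre-B cells. Dividing cells of the small pre-B-like gate are so named because they reached neither marker threshold, although small pre-B cells stop dividing. In surrogate light chain positive cells, 4 libraries had at least 10 dividing and 10 resting cells, and young 2, with 5 dividing cells, was left out. There 6 of 6 tested members were higher in dividing cells, against a background of 19.2% of 2689 genes. The mitochondrial pair had log2 differences of 1.41 ± 0.25 for Hspd1 (edgeR adjusted p = 1.02e-06) and 1.34 ± 0.21 for Hspe1 (edgeR adjusted p = 1.14e-07). Hspe1 had 347, 216, 1258 and 387 CPM in dividing pro-B-like cells of aged 2, aged 3, young 1 and young 3, against 149, 167, 441 and 152 CPM in resting ones. Hspd1 had 255, 176, 511 and 309.9 CPM in the dividing cells, against 68.5, 114, 184 and 166 CPM in the resting cells. Each of the 4 libraries was higher in its dividing cells for both genes, and young 1 had the highest dividing level. Hsp90aa1 differed by 1.36 ± 0.19 and Hsp90ab1 by 0.98 ± 0.17 on the log2 scale (edgeR adjusted p = 1.99e-09 and 8.90e-07). Hspa8 differed by 0.74 ± 0.16 (edgeR adjusted p = 0.000111; 0.125 without the filter on low counts). Dnajb1, at 0.81 ± 0.28 (edgeR adjusted p = 0.0154), was the least stable and fell to 0.39 without aged 2 (edgeR adjusted p = 0.398).

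Within the small pre-B-like gate, a comparison added after the data were seen, 3 of the 6 members were called higher and 3 were not called, against a background of 22.6% of 2636 genes called higher. Hsp90ab1 differed by 0.24 (edgeR adjusted p = 0.313), Hspe1 by 0.21 (edgeR adjusted p = 0.478) and Hspd1 by 0.74 (edgeR adjusted p = 0.0890). Without young 1, Hspd1 was called in this gate at 1.33 and Hsp90ab1 and Hspe1 were not, against a background of 22.4%. Levels of Hspd1 in dividing cells of this gate were 146, 199.9, 154, 299.9 and 127 CPM in aged 2, aged 3, young 1, young 2 and young 3, against 73.3, 65.5, 277, 76.2 and 123 CPM in resting cells. Young 1 alone had the lower level in its dividing cells. Its resting level in this gate rests on 26 UMIs, of which 1 cell held 8 and a cell with bone-forming markers held 6. When each cell was thinned to 1000 UMIs before summing, which gave each cell the same weight, Hsp90aa1, Hspa8 and Dnajb1 kept their call. Under that setting Hsp90ab1 (0.22, edgeR adjusted p = 0.177), Hspd1 (0.64, edgeR adjusted p = 0.133) and Hspe1 (0.13, edgeR adjusted p = 0.707) were not called, with 710 genes called in all and 18.0% of 2266 called higher. Over 16 alternatives to the fit of the B lineage, both fits of the small pre-B-like gate included, Hsp90aa1, Hspa8 and Dnajb1 were called in 16, Hspd1 in 14, Hsp90ab1 in 13 and Hspe1 in 12.

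**Figure D2:**
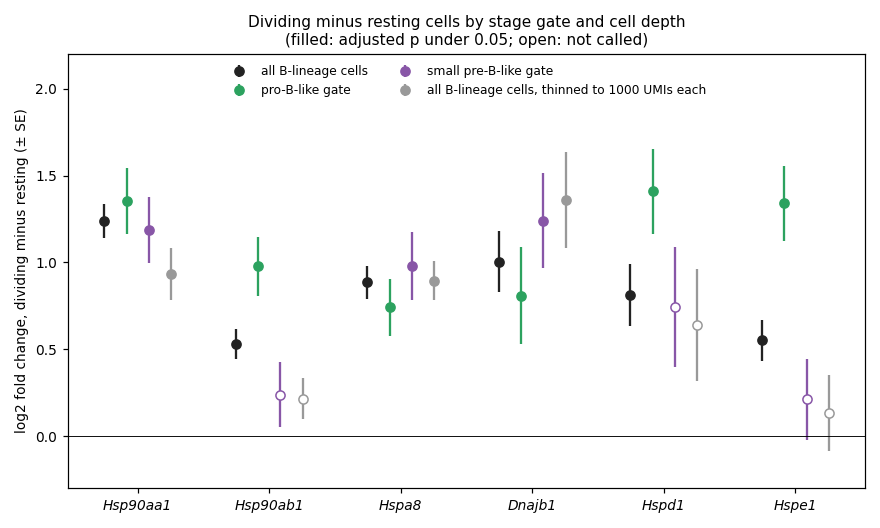
Log2 fold change of dividing minus resting cells (y axis, ± SE) for the 6 members that passed the filter, in the whole B lineage, within the pro-B-like and the small pre-B-like gate and with cells thinned to 1000 UMIs; filled points were called. All points lie above 0, and Hspe1 ranges between 0.13 and 1.34.

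Depth itself moved with the level of several members among dividing cells. As a description chosen after the data were seen, the dividing cells of each library were split at their median UMIs. In the deeper cells Hspd1 had 234, 209, 270.1, 269 and 219 CPM in aged 2, aged 3, young 1, young 2 and young 3, against 112, 76.4, 101, 104 and 92.4 CPM in the shallower cells. Hspe1 had 328, 310.3, 750.4, 386 and 279 CPM in deeper cells, against 112, 229, 289, 121 and 139 CPM in shallower cells. Both genes were higher in the deeper cells of 5 of 5 libraries. Hsp90aa1, Hsp90ab1 and Hspa8 were also higher in the deeper cells of 5 of 5 libraries, a direction shared by 6.63% of all genes. Dnajb1 was higher in the deeper cells of 1 of 5 libraries, young 2, and Hsph1 in those of 3 of 5. Among resting cells the order changed: Hsp90ab1 and Hspa8 were higher in deeper cells of 5 of 5 libraries (background 10.8%), Hspd1 in 4, Hspe1 and Dnajb1 in 3, and Hsp90aa1 in 0 of 5. CPM is a share of each cell's UMIs, so the level need not move with the total. Depth also differed by gate: dividing pro-B-like cells had a median of 6676.5 UMIs, small pre-B-like 4061.5 and MHC class II positive 3739. Whether the gate had a part in the split by depth was not tested. Whether depth had a part in the difference between dividing and resting cells was not tested. The thinning above cannot decide it, because a thinned cell keeps its expected share of each gene.

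**Figure D3:**
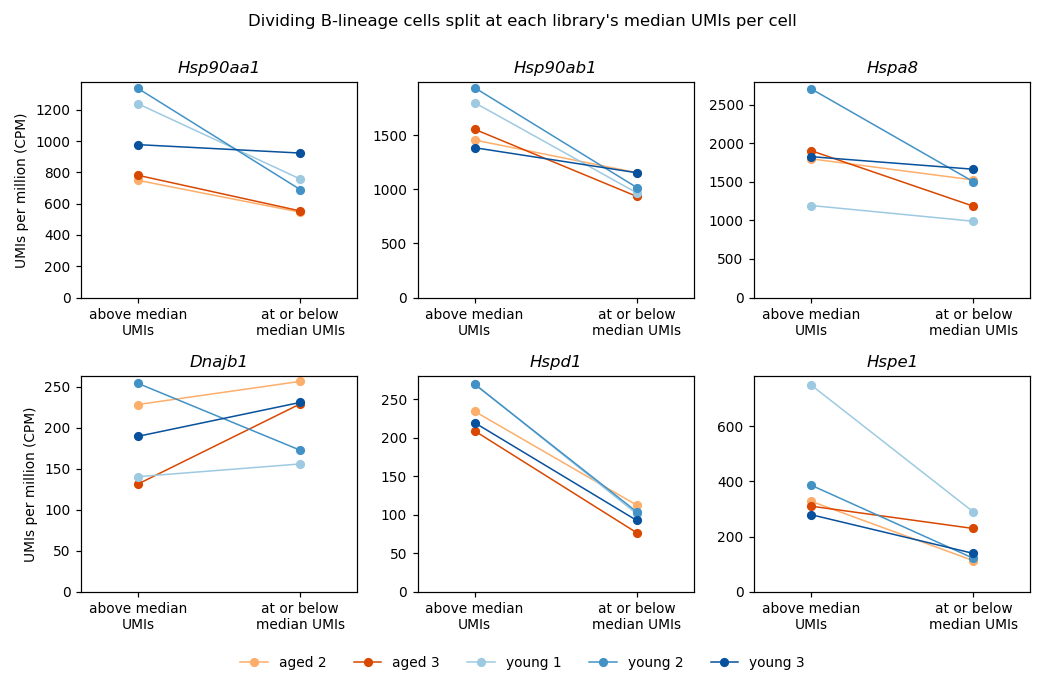
Level (CPM, y axis from 0) in dividing B-lineage cells above (left) and at or below (right) the median UMIs of their library; lines join the 2 parts of 1 library. Hspd1 drops to 76.4 to 112 CPM in the shallower cells of all 5 libraries, while Dnajb1 is higher in the shallower cells of 4.

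Single cells carried much of some sums, because 28 to 49 dividing cells stood behind each library other than young 1. One cell held 12 of the 26 Hspd1 UMIs in dividing cells of young 3 (46.2%), 14 of 39 in aged 3 (35.9%) and 14 of 47 in aged 2 (29.8%). One cell held 20 of 60 Dnajb1 UMIs in young 2 (33.3%). Another held 83 of 310 Hsp90ab1 UMIs in aged 3 (26.8%). Counting cells instead of UMIs avoids this weight. With all cells thinned to 1000 UMIs, 57.1% of dividing and 31.4% of resting cells had a UMI of Hsp90aa1, with exact 95% binomial intervals of 53.4% to 60.7% and 28.6% to 34.4%. Unthinned, the shares were 90.3% and 52.9%. For Hspd1 the thinned shares were 14.2% of dividing and 7.67% of resting cells, for Hspe1 27.1% and 17.8%, for Dnajb1 16.4% and 9.59%, and for Hsph1 1.49% and 0.863%. For Hspa8 they were 67.0% and 57.0%, and for Hsp90ab1 64.0% and 60.8%. These shares pool cells over libraries, and young 1 gave 588 of the 739 dividing but 90 of the 1043 resting cells. Within libraries the thinned share was higher in dividing cells of 5 of 5 libraries for Hsp90aa1, Hspa8, Hspd1 and Dnajb1, but of only 2 of 5 for Hsp90ab1, Hspe1 and Hsph1. In level, thinned cells had more Hspe1 when dividing in 2 of 5 libraries, the aged ones, and more Hsp90ab1 in 4 of 5, the exception being young 3, with 1132 CPM in dividing and 1287 CPM in resting cells. Intervals cover counting error over pooled cells only. No gated cell type is known to lack these genes, so no level of free RNA could be set beside the shares.

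Within dividing cells, S phase and G2/M could be compared in 2 libraries, aged 3 and young 1, since the others had fewer than 10 G2/M cells. Of 7 members tested, 0 were called by edgeR, against a background of 0.552% of 6702 genes; 487 genes had an unadjusted p under 0.05, and DESeq2 called 1 gene. Log2 differences of G2/M minus S phase ran between -0.67 ± 0.45 for Hsph1 and 0.02 ± 0.30 for Dnajb1, and 6 of the 7 were below 0.

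The partners of these chaperones were read from 7 lists with 66 genes, of which 64 had an entry in the tables and 50 passed the filter. In dividing cells 20 of the 50 were higher, 3 were lower and 27 were not called, with a median log2 difference of 0.29. Over all 4930 genes tested 24.5% were higher and 23.0% lower, which is the background for each list. Of 12 HSP90 co-chaperones, 6 were higher and 1 lower. Ptges3, the client-stabilising p23, differed by 1.90 ± 0.18, Fkbp4, an immunophilin co-chaperone, by 1.62 ± 0.17, and Stip1, the Hop adaptor between HSP70 and HSP90, by 1.23 ± 0.22 on the log2 scale (edgeR adjusted p = 1.13e-08, 4.51e-08 and 7.47e-05). Ptges3 had 244, 177, 159.7, 177 and 160.2 CPM in dividing cells of aged 2, aged 3, young 1, young 2 and young 3, against 44.8, 49.1, 41.4, 55.1 and 68.1 CPM in resting cells. Every dividing value lay above every resting value, as for 12.6% of all genes tested.

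Among 16 partners of HSP70, 6 were higher and 1 was lower in dividing cells, and both extremes were J proteins. Dnajc9, a J protein that also chaperones histones, had 498, 359, 393, 420.2 and 467 CPM in dividing cells of aged 2, aged 3, young 1, young 2 and young 3, against 54.1, 31.1, 71.4, 57.0 and 40.9 CPM in resting cells. Its log2 difference was 3.16 ± 0.16 (edgeR adjusted p = 3.22e-13). Dnajc7, a J protein that binds both HSP70 and HSP90, ran the other way, with 596, 741, 656, 471 and 815 CPM in dividing cells, against 2117, 2065, 1376, 2183 and 1835 CPM in resting cells. It differed by -1.48 ± 0.12 (edgeR adjusted p = 1.05e-09). Of the cytosolic chaperonin TRiC, 4 of 7 subunits were higher and 0 lower, led by Tcp1 (0.81 ± 0.14) and Cct8 (0.75 ± 0.13). Of prefoldin, which hands chains to TRiC, Pfdn6 was higher (0.65 ± 0.14) and Pfdn5 lower (-0.42 ± 0.10) among 6. Of 7 mitochondrial chaperones and proteases, 3 were higher, namely Hspa9 (1.14 ± 0.18), the mitochondrial HSP70, Trap1 (0.98 ± 0.32), the mitochondrial HSP90, and Lonp1 (0.94 ± 0.31), a protease. The small heat shock proteins and the heat shock factors each had 1 member tested, and neither was called. These lists were drawn up with earlier results of these data known.

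Across the resting stages 1 of the 6 members that passed the filter was called in any pair of stages; Hspa1a, which did not pass it, is described with the inducible genes. Small pre-B-like cells were set against pro-B-like cells in 1 fit of 3 stages over 2261 genes, of which 29.9% changed between these stages and 14.7% were lower. This member was Dnajb1, lower by a log2 difference of -0.65 ± 0.23 (edgeR adjusted p = 0.0350). It had 87.1, 195, 82.7, 135 and 148 CPM in pro-B-like, 80.3, 117, 53.2, 62.3 and 80.3 CPM in small pre-B-like and 25.2, 63.1, 143, 98.7 and 135 CPM in MHC class II positive cells of aged 2, aged 3, young 1, young 2 and young 3. The small pre-B-like level was below the pro-B-like level in 5 of 5 libraries, although the groups overlapped. The call was lost in 6 of 13 alternatives, among them without young 2 (-0.58), young 3 (-0.59) or aged 3 (-0.62), with edgeR adjusted p of 0.0982 to 0.122, and with DESeq2 (adjusted p = 0.127), without the filter on low counts (edgeR adjusted p = 0.0981) or without the library term (edgeR adjusted p = 0.121). With a stricter split into dividing and resting cells it was -1.20. Within the small pre-B-like gate, cells with a UMI of Rag1 or Rag2, the recombinase genes, had 60.0 to 138 CPM of Dnajb1 and those with a UMI of Cd2 or Ms4a1, surface genes of more mature cells, had 45.0 to 108 CPM.

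The other 5 tested members were not called between any pair of stages. Hspa8 came nearest, with 1030.0, 1206, 854, 1039 and 1137 CPM in pro-B-like, 809.9, 773, 756, 866 and 1188 CPM in small pre-B-like and 1236, 1091, 713, 1204 and 1255 CPM in MHC class II positive cells of aged 2, aged 3, young 1, young 2 and young 3. Its difference of small pre-B-like minus pro-B-like cells was -0.27 ± 0.11 (edgeR adjusted p = 0.0621), lower in 4 of 5 libraries, and 3 alternatives called it. Between MHC class II positive and small pre-B-like cells 0.442% of genes were called by edgeR and 0 of the 6 members, with log2 differences between -0.16 ± 0.16 and 0.31 ± 0.12. Between MHC class II positive and pro-B-like cells 21.3% of genes and 0 of the 6 members were called; the largest difference in size was that of Dnajb1, -0.47 ± 0.29 (edgeR adjusted p = 0.292). Hsp90aa1 averaged 391 ± 75.6 CPM in pro-B-like, 444 ± 145 CPM in small pre-B-like and 389 ± 106 CPM in MHC class II positive cells (SD, n = 5 libraries each). Hspe1 averaged 228 ± 123, 265 ± 114 and 262 ± 166 CPM, and Hspd1 130.1 ± 45.6, 123 ± 88.9 and 141 ± 63.0 CPM, in the same order. Each library gave all 3 stages, so these SDs between libraries do not measure the spread of the stage differences. With the library as a term, the log2 difference of small pre-B-like minus pro-B-like cells was 0.14 ± 0.14 (SE) for Hsp90aa1. It was 0.30 ± 0.16 for Hspe1 and -0.22 ± 0.24 for Hspd1. In dividing cells Hspe1 averaged 552 ± 476 CPM in the pro-B-like (SD, n = 4), 294 ± 148 CPM in the small pre-B-like (n = 5) and 234 ± 69.7 CPM in the MHC class II positive gate (n = 3), and Hspd1 averaged 313 ± 143, 185 ± 69.5 and 95.9 ± 14.4 CPM. In the pro-B-like gate young 1 had 1258 CPM of Hspe1 and the other 3 libraries 216 to 387 CPM. The means rest on different libraries, with young 2 missing from the pro-B-like and both aged libraries from the MHC class II positive gate, so their order is a description with no test.

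**Figure D4:**
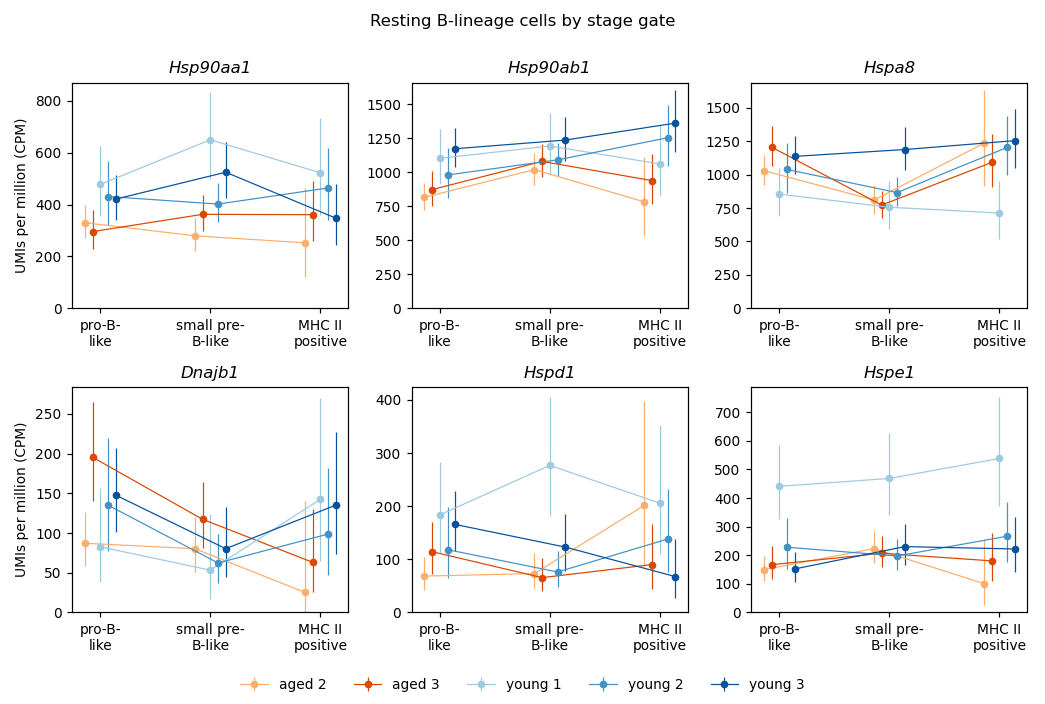
Level (CPM, y axis from 0) of the members in resting pro-B-like, small pre-B-like and MHC class II positive cells, 1 line per library with 95% Poisson intervals. Dnajb1 is lower in small pre-B-like than in pro-B-like cells in all 5 lines, and the young 1 line of Hspe1 lies at 441 to 538 CPM, above the others.

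Of the listed partners, 28 passed the filter in the stage fit, and 1 was higher and 2 were lower in small pre-B-like than in pro-B-like cells, against 15.1% higher and 14.7% lower of all 2261 genes. Dnajc7 had 2988, 2825, 2077, 2885 and 2879.7 CPM in small pre-B-like cells of aged 2, aged 3, young 1, young 2 and young 3, against 1229, 758, 533, 599.7 and 676 CPM in pro-B-like cells. Its log2 difference was 1.87 ± 0.11 (edgeR adjusted p = 1.70e-14), and in MHC class II positive cells it was still 1.63 above pro-B-like cells. Dnajb6, a J protein that holds back aggregation, fell by 0.51 (edgeR adjusted p = 0.00543) and St13, the HSP70-interacting protein Hip, fell by 0.71 (edgeR adjusted p = 0.00669) on the log2 scale.

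Aged and young libraries were compared within a class of cells. In resting cells 0 of 6153 genes were called by edgeR and 0 by DESeq2 (0.0%; 115 genes had an unadjusted p under 0.05), and in dividing cells 0 of 3844 by edgeR and 0 by DESeq2 (0.0%; 144 genes), so 0 of the 6 members were called in either class. On simulated counts the fit of resting cells recovered a log2 difference of 1 for 21% of altered genes, so an absent call does not show equal levels. In both classes the aged values of Hsp90aa1 lay below every young value. Hsp90aa1 had 303 and 339 CPM in resting cells of aged 2 and aged 3, against 549, 421 and 444 CPM in those of young 1, 2 and 3, and 695 and 727 CPM in dividing cells of the aged, against 1104, 1189.9 and 961 CPM in those of the young libraries. The log2 differences of aged minus young were -0.63 ± 0.29 in resting and -0.69 ± 0.30 in dividing cells (edgeR adjusted p = 0.9997 and 0.999), and without young 1 they were -0.47 and -0.61. Split by stage, resting pro-B-like cells had 330 and 296 CPM in aged 2 and aged 3, against 478, 431 and 421 CPM in young 1, 2 and 3. Small pre-B-like cells had 279 and 362 CPM, against 650, 402 and 525 CPM. There 1 cell held 20 of the 61 UMIs of young 1. In MHC class II positive cells the groups overlapped. The share of all genes with aged values below young ones within a stage was not counted.

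Aged values of Hsp90ab1, Hspd1 and Hspe1 also lay below every young value in resting cells, a pattern met by 5.05% of all genes in that class. In dividing cells 6.3% of genes met it, and Hsp90aa1 was the only member that did. The difference of the mitochondrial pair was smaller without young 1. Hspd1 differed by -0.91 ± 0.36 in resting cells and by -0.51 ± 0.27 without young 1, and Hspe1 by -0.75 ± 0.38 and by -0.21 ± 0.21 without young 1. Hspa8 (-0.10 ± 0.30) and Dnajb1 (0.05 ± 0.32) were near 0. The test of whether the difference between dividing and resting cells changes with age called 0 of 4930 genes in edgeR (174 genes at an unadjusted p under 0.05). Hspd1 had the largest member value, 0.67 ± 0.35 (adjusted p = 0.999).

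Myeloid cells could be read in young 1 alone, where 151 cells held 1814887 UMIs; the other libraries had 0 to 4 such cells. With 1 library there is no test, and values are given with exact 95% Poisson intervals for counting error. The gate asked for at least 3 myeloid markers and for more of these than of the other lists, so its cells can also hold B-lineage transcripts. Whether these had a part in the levels was not tested. The HSP90 genes were higher in myeloid than in resting B-lineage cells of young 1: Hsp90aa1 had 1039 CPM (992 to 1087) in myeloid cells, against 549 CPM (464 to 646) in resting B-lineage cells, and Hsp90ab1 1956 CPM (1892 to 2021), against 1124 CPM (1001 to 1259). Hspa8 had 1351 CPM (1298 to 1406) in myeloid and 786 CPM (683 to 900.0) in resting B-lineage cells, and Hspe1 736 CPM (697 to 776) and 474 CPM (395 to 564). Hspd1, with 264 CPM (241 to 289) in myeloid and 222 CPM (169 to 286) in resting B-lineage cells, and Dnajb1, with 119.6 CPM (104 to 137) and 86.5 CPM (54.8 to 129.8), had overlapping intervals. The myeloid cells included 80 dividing ones. Dividing B-lineage cells of young 1 lay closer to the myeloid level than resting ones for Hsp90aa1, Hsp90ab1, Hspa8, Hspe1 and Dnajb1. Those dividing cells had 1104 CPM of Hsp90aa1 (1068 to 1141) and 145 CPM of Dnajb1 (132 to 158), while Hsp90ab1 (1569 CPM, 1526 to 1613), Hspa8 (1135 CPM, 1099 to 1173) and Hspe1 (621 CPM, 594 to 649) lay below the myeloid intervals. Hspd1 (223 CPM, 207 to 240) also lay below its myeloid interval and was about equal to its level in resting B-lineage cells. Median depth differed as well, at 10696 UMIs for all myeloid and 2241 for all resting B-lineage cells. Dividing and resting myeloid cells (80 and 37 cells) had overlapping intervals for each member. Hsp90aa1 had 1056 CPM in dividing and 975 CPM in resting myeloid cells, and Hspd1 242 and 313 CPM.

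The inducible genes were scarce. Hspa1a had 140 UMIs in 48 of the 2116 cells, and Hspa1b had 26 UMIs in 14 cells, 25 of the UMIs in young 1; 9 cells held both. Their transcript ends can be told apart, since the last 400 bases shared 0 of 351 words of 50 bases. By library Hspa1a had 2 UMIs in 1 cell of aged 2, 48 in 13 cells of aged 3, 74 in 26 cells of young 1, 5 in 4 cells of young 2 and 11 in 4 cells of young 3. In aged 3 the 3 top cells held 30 of the 48 UMIs (62.5%). The cell with the most, 12 UMIs of its 1222, was a resting small pre-B-like cell of aged 3, and the next, with 11, passed the endothelial gate in that library. In young 1, 58 of the 74 UMIs lay in 15 myeloid cells. Myeloid cells of young 1 thus had 32.0 CPM (24.3 to 41.3). Resting B-lineage cells of young 1 had 0 of 265923 UMIs, for which the exact upper bound is 13.9 CPM. The myeloid cells with 5 to 10 Hspa1a UMIs had 3 to 11 of the 20 myeloid markers and also 2 to 8 of the 8 B-lineage markers. Whether such cells were mixed droplets was not tested.

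In dividing B-lineage cells Hspa1a had 8.58, 0, 4.40, 3.93 and 13.9 CPM in aged 2, aged 3, young 1, young 2 and young 3, against 0, 45.9, 0, 7.87 and 17.5 CPM in resting cells. The classes overlapped and no call was made without the filter (edgeR adjusted p = 0.491 for Hspa1a and 0.945 for Hspa1b). In resting cells the UMIs lay mostly in the small pre-B-like gate, with 0, 24, 0, 4 and 9 UMIs in aged 2, aged 3, young 1, young 2 and young 3, against 0, 3, 0, 0 and 0 UMIs in pro-B-like cells. Without the filter edgeR called this difference (adjusted p = 0.000124), with 12 of the UMIs of aged 3 in the 1 cell above and 2 libraries at 0 in both stages. It also called Hspa1a lower in MHC class II positive than in small pre-B-like cells (adjusted p = 0.0184), on 0, 1, 0, 0 and 0 UMIs in MHC class II positive cells of the same libraries. The 12 listed immediate early genes, a class with members that respond within minutes to stimulation or handling, were unevenly expressed. In resting cells Jund had 1505 to 4077 CPM over the libraries, Btg2 387 to 1099 CPM and Atf3 3.09 to 25.3 CPM. Jund thus weighed most there in the sum of the 12 genes. Their sum was 2904, 2659, 2646, 4473 and 3831 CPM in dividing cells, against 4928, 4402, 4050, 6895 and 4145 CPM in resting cells, in the same library order. It was lower in the dividing cells of each library. Whether these genes had a part in the chaperone levels was not tested.

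**Figure D5:**
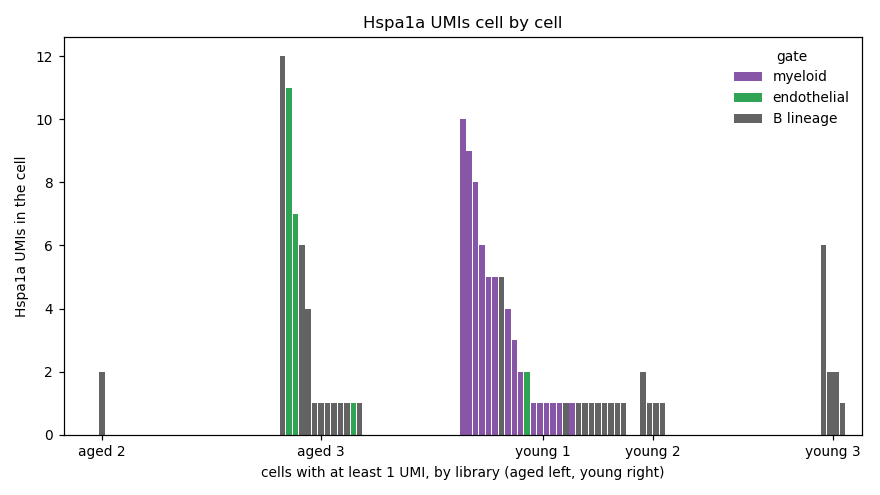
Hspa1a UMIs (y axis) in each of the 48 cells with at least 1 UMI, 1 bar per cell, ordered within a library, with aged libraries left of young ones and colours for the lineage gate. A B-lineage cell with 12 and an endothelial cell with 11 UMIs lead aged 3, and myeloid cells lead young 1.

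The genes most like a member were sought over 22 sums of library and class, as Pearson's r of log2(CPM + 10) among 3107 genes of at least 50 CPM. The sums share libraries and differ in depth and in cell cycle gene content, so r is a description. Hsp90aa1 was most like Top2a and Fbxo5 (r = 0.93 each), both cell cycle genes, and Snrpd1 (0.92), a splicing gene. Top2a is among the 36 genes of the gate for dividing cells, so its r partly restates the difference between dividing and resting cells. Hsp90ab1 was most like Npm1 (0.87), Hspa8 most like Ybx1 (0.87) and Dnajb1 most like Ndc80 (0.87), a kinetochore gene. Hspd1 was most like Rps2 (0.82), a ribosomal protein gene, followed by the mitochondrial genes Atp5g1 (0.80) and Minos1 (0.76). Hspe1 was most like Rps12 (0.90, and 0.74 within libraries), also a ribosomal protein gene. Between members, r was 0.84 for Hsp90aa1 with Hsp90ab1, and 0.57 for Hspd1 with Hspe1 (0.38 within libraries). Whether the shared promoter region of Hspd1 and Hspe1 had a part was not tested.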

How the data were processed

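The authors deposited 1 table per library, with unnormalized UMI counts of each gene in each barcode. Per the submitters' processing notes Cell Ranger, the mouse build mm10, R 3.5.2, edgeR 3.24.3 and DESeq2 1.22.2 were used, with no roles given. The barcode filter is not given in the sources used here. Gene symbols matched 27645 of 27998 identifiers, and positions came from a GRCm38 annotation. Lineage gates used 8 B-lineage, 20 myeloid and 14 endothelial markers. Doublet calls (scanpy 1.11.5) marked 49 cells, which stayed in and were left out as an alternative. Counts of a class with at least 10 cells in a library were summed and fitted with edgeR 4.0.16 (R 4.3.3; TMM, filterByExpr, quasi-likelihood test, Benjamini-Hochberg adjusted p under 0.05 over all genes tested), with the library as a term except in age comparisons. An SE is the log2 difference divided by the square root of F. DESeq2 1.42.0 was an alternative. The fit was checked on simulated counts with true log2 differences of 1 and 2. A difference of 1 was recovered for 79% of altered genes in dividing minus resting and 77% in MHC class II positive minus pro-B-like cells. In aged minus young resting cells it was recovered for 21%, and a difference of 2 for 79%. The number of PCR cycles varied between libraries, per the labels. Nothing says whether the libraries came from separate animals beyond the design text, which calls them biological replicates. The named genes are all 9 members, and up to 3 genes of smallest p per partner list. The members and lists were chosen with earlier results of these data known.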

Additional observations from a re-analysis of the deposited data

How the results depend on the processing

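Over 621 alternatives to the member results, 557 kept direction and call, 23 lost and 4 gained a call, and 37 changed sign, none of these among called differences. Young 1 holds most dividing and myeloid cells, and in dividing cells of the other libraries 1 cell can carry up to 46.2% of the UMIs of a member that passed the filter. G2/M and S phase rest on 2 libraries and could not be refitted with 1 left out, and myeloid cells rest on 1. The cause of each shift below was not tested, except that thinning leaves fewer genes to test.

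Of genes called, the dividing minus resting contrast had 2342, against 710 with cells thinned to 1000 UMIs, 1123 in the small pre-B-like gate and 1229 there without young 1 (both gates added after the data were seen). In pro-B-like cells it had 997, against 614 with DESeq2, 177 thinned and 591 with the other rule for dividing (from 2 genes) and resting (0 genes). G2/M minus S phase had 37, against 1 with DESeq2, 23 without the filter, 13 thinned, 14 with the other rule and 0 without the library term. Small pre-B-like minus pro-B-like had 675, against 1108 without the filter, 285 thinned, 361 with the other rule and 403 without the library term. MHC class II positive minus small pre-B-like had 10, against 4 with DESeq2, 57 without the filter, 18 with the other rule, 4 without the library term, and 5 to 21 with 1 library left out. MHC class II positive minus pro-B-like had 482, against 182 thinned, 309 with the other rule and 285 without the library term. Aged minus young had 0 in resting cells, against 29 without the filter and 0 to 3 with 1 library left out, and 0 in dividing cells, against 19 without the filter and 0 to 6 with 1 left out.

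Signs that turned were of small, uncalled log2 differences. G2/M minus S phase: Dnajb1 -0.016 with doublets left out. MHC class II positive minus small pre-B-like: Hsp90ab1 0.17 with the other rule and 0.073 with stricter gates; Hspe1 0.0085 thinned, 0.15 with the other rule, 0.18 with stricter gates and 0.030 without the library term. With 1 library left out, Hspd1 ran between -0.033 and 0.42, Hspe1 between -0.17 and 0.059, and Dnajb1 between -0.0045 and 0.54. MHC class II positive minus pro-B-like: Hsp90aa1 0.23 with the other rule, 0.14 with stricter gates and 0.021 without the library term, and -0.092 to 0.081 with 1 library left out. There Hsp90ab1 was -0.036 thinned, and Hspa8 -0.038 without the filter, -0.026 thinned, -0.0045 with the other rule and -0.025 to 0.12 with 1 library left out. Hspd1 was 0.0039 with DESeq2, 0.031 without the library term and -0.31 to 0.31 with 1 library left out. Aged minus young resting: Hspa8 -0.21 to 0.069 and Dnajb1 -0.41 to 0.41 with 1 library left out, and Dnajb1 -0.16 with the other rule. Aged minus young dividing: Hspa8 0.049 thinned and -0.30 to 0.16 with 1 left out, Dnajb1 0.021 with doublets left out, 0.020 with the other rule and -0.31 to 0.19 with 1 left out.

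Replicate numbers 2 and 3 occur in both ages. Deviations of same-numbered libraries correlated at r = 0.311 (number 2) and 0.101 (number 3) over 6153 genes, but with 2 pairs and no label of a shared batch the numbers are not taken to pair samples. With a replicate block 4 genes were called in resting and 0 in dividing cells, 0 of them members, and Dnajb1 in resting cells was -0.0061.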
